A study of Mus musculus with 14 samples.

Results

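Transcripts of 8 follicular helper and memory-like CD4 genes were followed through T cells sorted from mouse tumours. The genes were Izumo1r, which encodes folate receptor 4 (FR4), Slamf6, Sh2d1a, Bcl6, Ascl2, Cxcr5, Il21 and Pou2af1. They were taken as a named list, not by their values, and all 8 were found among the 25124 genes of the count table. Of these, 7 passed the filter on low counts and were tested, and Ascl2 did not pass it.

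Follicular helper T cells are CD4 T cells that enter B cell follicles and help B cells to make antibody. The repressor Bcl6 directs this state, the receptor Cxcr5 guides the cells towards follicles, signals through SLAM receptors and their adaptor SAP hold them in contact with B cells, and interleukin 21 is their best-known cytokine. Regulatory T cells (Tregs), which depend on Foxp3 and hold back immune responses, can take on a related follicular state, and FR4 is a surface protein long used to mark Tregs and unresponsive CD4 T cells.

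The mice were female C57BL/6 animals of 8 to 12 weeks, with the genotype given as GATIR Foxp3Cre-rfp Gata3Cre-yfp, so that red fluorescence reported Foxp3 in every group. Every animal bore a subcutaneous tumour of AE17-OVA, a mesothelioma line of the mouse that carries the model antigen ovalbumin. Anti-PD-L1 (clone MIH5, 200 µg) or an isotype antibody (clone 2A3) was given on day 10, and the protocol places the end of the experiment at day 13. Cells were sorted by their CD4, CD25, red reporter and PD-1 signals into 3 populations, each under both antibodies. CD4 T cells had 2 isotype and 3 anti-PD-L1 libraries, PD-1- Tregs had 2 and 2, and PD-1+ Tregs had 2 and 3. The libraries were made with Smart-seq2, a full-length method for small inputs. The replicates are called biological, but the animals or pools behind each library are not stated, and the p-values speak only of the spread between libraries.

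Total counts ran from 10638848 to 15030804 per library. Genes with at least 1 count numbered 12119 to 14535 in CD4 T cells, 9662 to 11312 in PD-1+ Tregs and 8027 to 8801 in PD-1- Tregs. All 9 T cell markers in the table were found in every group. Il2ra, which encodes CD25, rose in both Treg types against CD4 T cells by edgeR's test (log2 4.05 for PD-1- cells, 3.35 for PD-1+ cells), whereas Foxp3 in PD-1+ Tregs (15.9 to 156 CPM, counts scaled to 1000000 per library) overlapped its range in CD4 T cells (16.3 to 54.9 CPM). Transcripts of 4 Y-linked genes were present in 3 libraries of these labelled female animals, all anti-PD-L1: CD4 replicate 3, PD-1- Treg replicate 2 and PD-1+ Treg replicate 3. They are called the Y-positive libraries here. Values without them are given where they matter. In PD-1- Tregs such values rest on 1 anti-PD-L1 library.

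Set per unit of transcript length, the 8 genes covered a wide range. Mean RPKM (the authors' read counts divided by transcript length and depth) over the 14 libraries was 279 ± 163 for Izumo1r, 168 ± 85.3 for Sh2d1a and 83.1 ± 38.1 for Slamf6 (SD, n = 14). Bcl6 followed at 16.5 ± 7.56 RPKM, Cxcr5 at 7.38 ± 7.08, Pou2af1 at 3.07 ± 3.27, Il21 at 1.32 ± 2.34 and Ascl2 at 0.0086 ± 0.032. FR4 and the SLAM pair were thus the most abundant, and the transcription regulator, the homing receptor and the cytokine were far lower. The order was not the same in every population. In CD4 T cells Sh2d1a (145 to 197 RPKM) and Izumo1r (139 to 170 RPKM) overlapped, and Izumo1r stood above Slamf6 (76.1 to 135 RPKM) in all libraries. In PD-1- Tregs Izumo1r (242 to 532 RPKM) lay just above the range of Sh2d1a (25.9 to 240 RPKM). In PD-1+ Tregs these 2 genes overlapped, at 98.1 to 544 RPKM for Izumo1r and 57.8 to 324 RPKM for Sh2d1a. In CD4 T cells Bcl6 (15.3 to 26.1 RPKM) stood above Cxcr5 (4.65 to 12.3 RPKM), which overlapped Pou2af1, and Pou2af1 overlapped Il21 (0.496 to 5.23 RPKM).

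**Figure D1:**
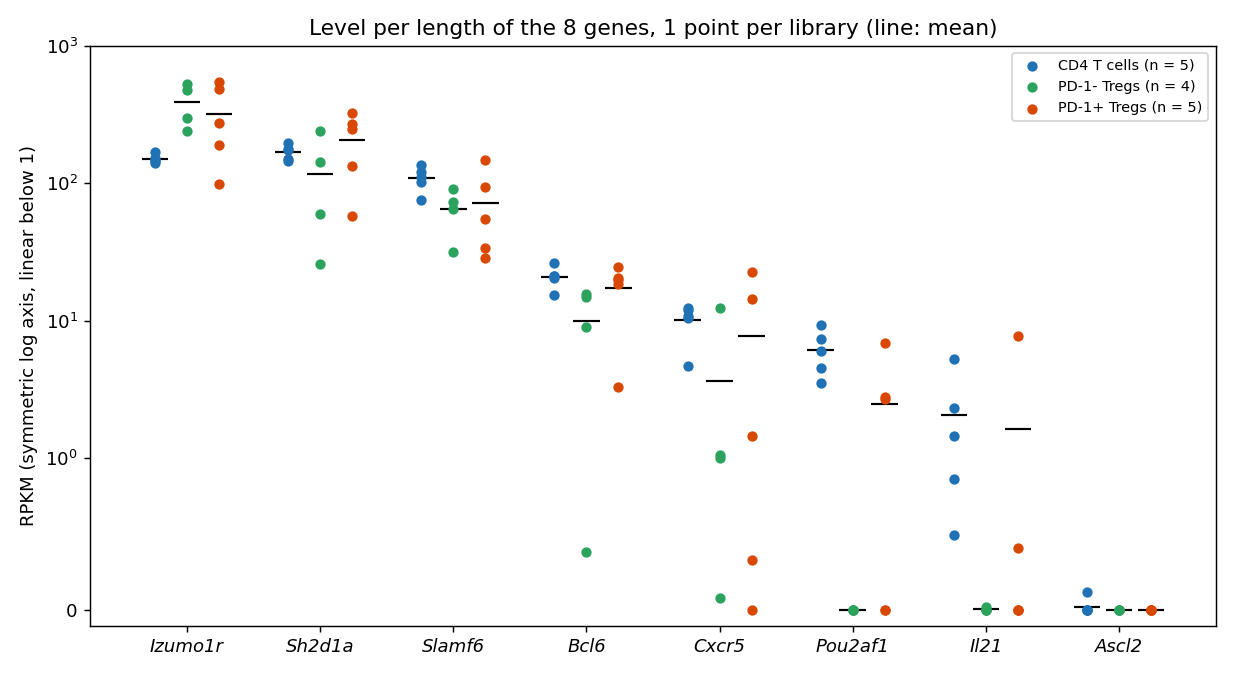
RPKM (vertical axis, logarithmic above 1 and linear below) of the 8 genes along the horizontal axis, with 1 point per library and a line at the mean of each population. Izumo1r spans 139 to 170 RPKM in CD4 T cells and 98.1 to 544 RPKM in PD-1+ Tregs, and Pou2af1 lies at 0 in all 4 PD-1- Treg libraries.

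Izumo1r, the FR4 gene, was higher in PD-1- Tregs than in CD4 T cells. The PD-1+ type was higher than CD4 T cells by mean, with overlapping libraries. It lies at chr9:14885814-14903951 on the minus strand (mm10). Its level in CD4 T cells was 216 and 204 CPM under isotype and 245, 219 and 228 CPM under anti-PD-L1. PD-1- Tregs held 861 and 481 CPM under isotype and 333 and 711 CPM under anti-PD-L1. PD-1+ Tregs held 735 and 803 CPM under isotype and 451, 291 and 168 CPM under anti-PD-L1. The CD4 libraries were tightly grouped, all 4 PD-1- Treg libraries stood above all 5 of them, and the anti-PD-L1 libraries of PD-1+ Tregs were the ones that reached down into the CD4 range.

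Between PD-1- Tregs and CD4 T cells, the mean rose from 222 ± 15.5 CPM (SD, n = 5) to 597 ± 235 CPM (SD, n = 4). The ratio was 2.68, and the log2 change of 1.43 ± 0.30 (SE) passed the threshold in edgeR's quasi-likelihood test (adjusted p = 0.0231). It was also the only member higher without overlap there, as were 1.01% of all genes, and the only member called in any of the 8 comparisons, where 3.6% of 13434 tested genes were called and 0.275% of the 13434 were called as higher. The call was kept in 14 of 26 alternatives, with adjusted p from 3.94e-05 to 0.204. With replicate blocks in edgeR it was lost by title number (adjusted p = 0.0803) and by treatment and tag number (adjusted p = 0.0897). It was kept with a block by tag number, the number in the bracketed tag of the title (adjusted p = 0.0454). Among subsets of the libraries it was lost in the isotype libraries alone (adjusted p = 0.103), in the anti-PD-L1 libraries alone (adjusted p = 0.204) and without the Y-positive libraries (log2 1.07, adjusted p = 0.0571). It was also lost when any 1 of the 5 CD4 libraries was left out (adjusted p from 0.0577 to 0.101), or PD-1- Treg isotype replicate 1 (adjusted p = 0.0652) or PD-1- Treg anti-PD-L1 replicate 2 (adjusted p = 0.0657). The direction held in all 26.

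PD-1+ Tregs averaged 490 ± 275 CPM of Izumo1r (SD, n = 5), a log2 difference of 1.14 ± 0.28 from CD4 T cells that missed the threshold in edgeR (adjusted p = 0.169). DESeq2 gave an adjusted p of 0.0052 for it. The same comparison called 0.35% of all genes. Between the Treg types, Izumo1r differed by -0.29 ± 0.29 on the log2 scale (PD-1+ over PD-1-, adjusted p = 0.728), and 4.28% of all genes were called there.

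The 66 bases that precede the Izumo1r gene start in RefSeq (GRCm38.p6, the assembly of mm10) are printed because this gene carried the single call. They are chr9:14903952-14904017 on the minus strand, 5′ to 3′, and capitals would mark a match.
Izumo1r: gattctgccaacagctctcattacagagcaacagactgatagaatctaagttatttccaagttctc
Both strands were searched for the octamer ATGCAAAT, the E-box CANNTG, the Bcl6 motif TTCCTNGAA and the TCF forms CTTTGAA and CTTTGAT, and none of these letters occurs in this window. Of 32851 RefSeq windows of the same length, 25.34% hold an E-box and 0.347% the octamer. The Bcl6 form is in 0.3196% and the TCF forms are in 1.315% and 0.898%.

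**Figure D2:**
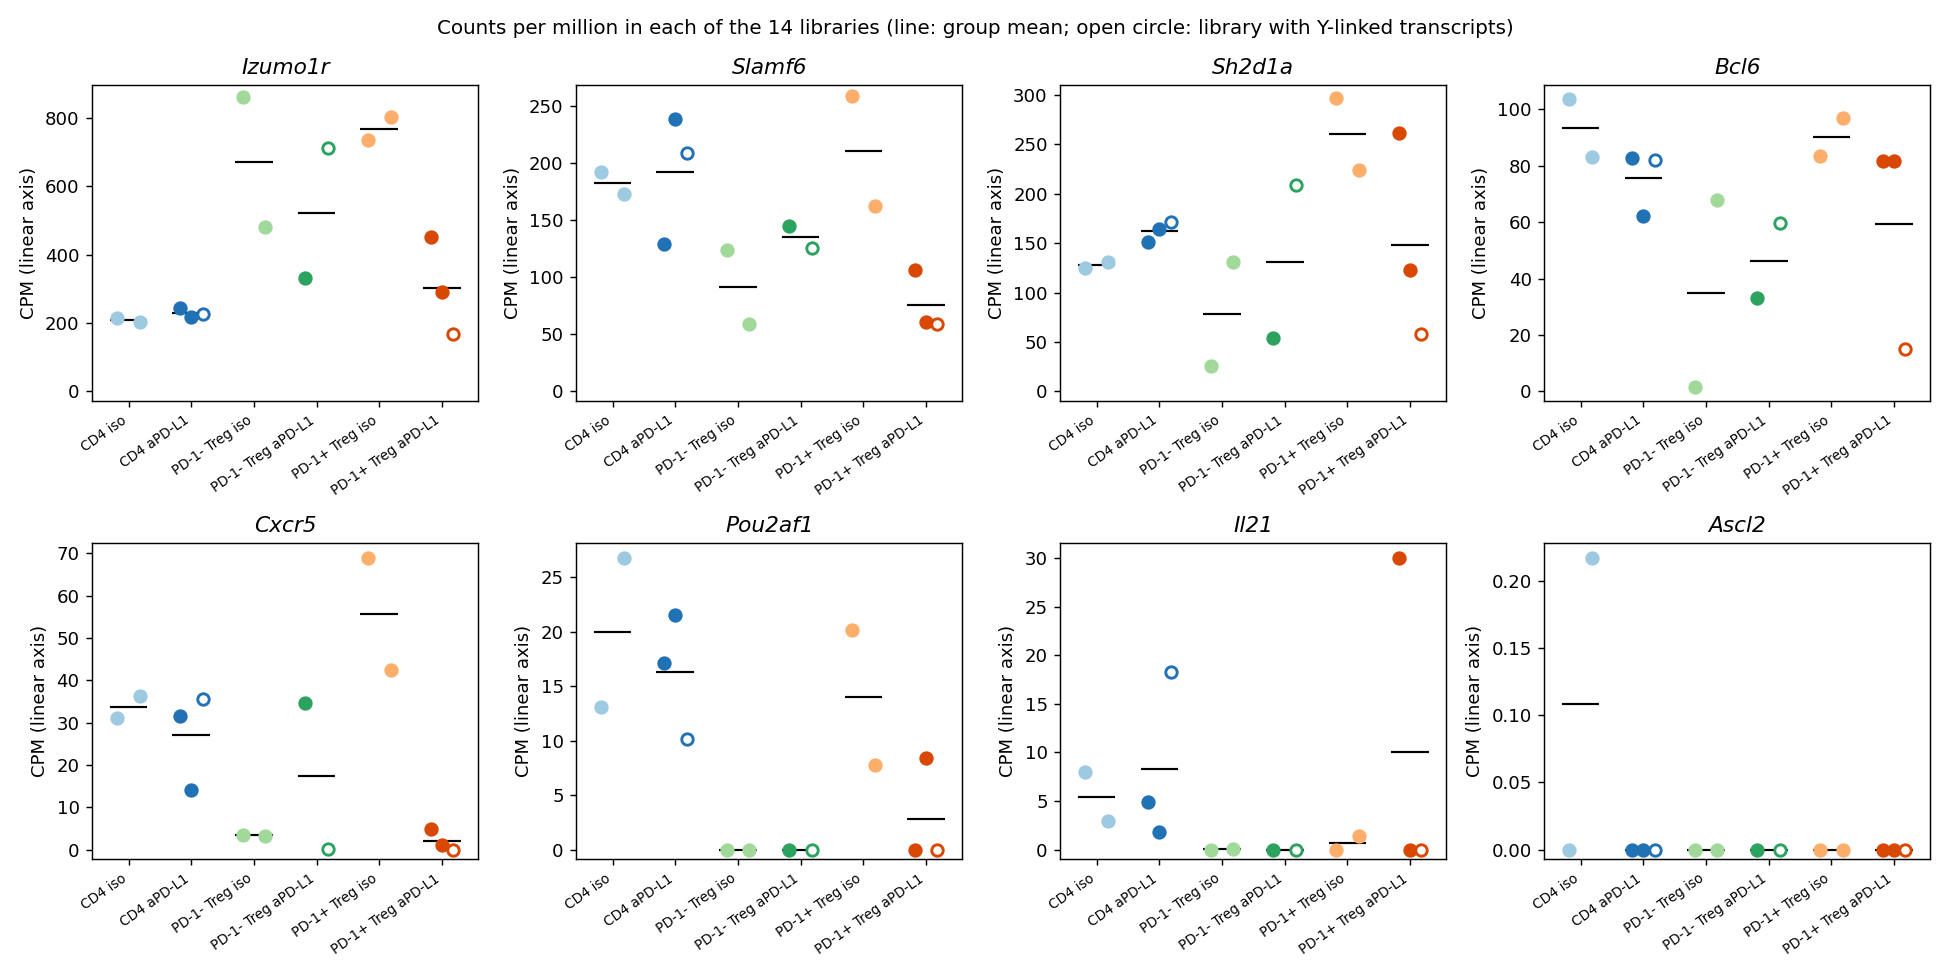
CPM (vertical axis, linear, with its own scale per gene) of each of the 8 genes in the 6 groups, 1 point per library, with a line at the group mean and open circles for the Y-positive libraries. Izumo1r lies between 204 and 245 CPM in CD4 T cells, Cxcr5 lies at 0 to 4.80 CPM in the anti-PD-L1 libraries of PD-1+ Tregs, and Ascl2 has a value in 1 library.

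The other folate genes gave a sparse picture beside FR4. Of 5 listed folate receptor, folate carrier and CD73 genes, 4 were tested and 0 were called by edgeR in any comparison. Of all genes, 0.00744% to 4.28% were called, depending on the comparison. Nt5e, which encodes the ectoenzyme CD73 often found together with FR4, stood at 173 ± 106 CPM in PD-1+ Tregs (SD, n = 5). It was at 92.8 ± 60.4 CPM in PD-1- Tregs (SD, n = 4) and at 81.3 ± 21.1 CPM in CD4 T cells (SD, n = 5), differences within that spread. Folr2, folate receptor beta and a macrophage gene, had 0 counts in all PD-1- Treg libraries and 12.4 ± 9.21 CPM in PD-1+ Tregs. Its difference between the Treg types was at least 48.4-fold but missed the threshold (adjusted p = 0.0791).

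Slamf6, a receptor of the SLAM family that binds itself on neighbouring cells (Ly108), was at its highest in isotype PD-1+ Tregs by mean and at its lowest in the same cells under anti-PD-L1. It lies at chr1:171917458-171948958 on the plus strand. CD4 T cells held 192 and 173 CPM under isotype and 129, 238 and 209 CPM under anti-PD-L1. PD-1- Tregs held 124 and 59.1 CPM under isotype and 145 and 125 CPM under anti-PD-L1. PD-1+ Tregs held 258 and 163 CPM under isotype and 106, 60.9 and 58.8 CPM under anti-PD-L1. Every anti-PD-L1 library of PD-1+ Tregs was below both isotype ones, while in PD-1- Tregs both anti-PD-L1 libraries were above both isotype ones.

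The treatment difference of Slamf6 in PD-1+ Tregs was -1.48 ± 0.42 on the log2 scale, from 210 to 75.2 CPM by mean. It missed the threshold in edgeR (unadjusted p = 0.0043, adjusted p = 0.548) and passed it in DESeq2 (adjusted p = 0.0322). Leaving out the Y-positive libraries gave -1.36 ± 0.50 (adjusted p = 0.663). In PD-1- Tregs the difference was 0.56 ± 0.47 (adjusted p = 0.618) and in CD4 T cells 0.07 ± 0.43 (adjusted p = 1.0). A test that the 3 treatment effects are equal gave an unadjusted p of 0.0162 for Slamf6, which did not pass over all genes in edgeR (adjusted p = 0.318) or in DESeq2 (adjusted p = 0.0526). Tregs of either kind had less Slamf6 than CD4 T cells by mean, at -0.75 ± 0.32 for PD-1- Tregs (adjusted p = 0.153) and -0.57 ± 0.31 for PD-1+ Tregs (adjusted p = 0.507). The isotype libraries alone turned the PD-1+ difference to 0.21.

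The 246 bases that precede the Slamf6 gene are printed beside this difference, from chr1:171917212-171917457, plus strand, with the E-box match in capitals.
Slamf6: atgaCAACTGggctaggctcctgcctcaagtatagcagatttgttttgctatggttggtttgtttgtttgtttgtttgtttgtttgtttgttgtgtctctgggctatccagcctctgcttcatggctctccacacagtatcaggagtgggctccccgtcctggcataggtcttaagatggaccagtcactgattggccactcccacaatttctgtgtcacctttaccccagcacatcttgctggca
The match CAACTG starts 242 bases before the gene, and 65.77% of windows of this length hold an E-box. The octamer, the Bcl6 form and the TCF forms have no match here, and they are found in 1.589%, 1.278%, 4.402% and 3.151% of windows.

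Sh2d1a encodes SAP, the small adaptor that binds the tails of SLAM receptors and is needed for lasting contact between T and B cells. The gene lies on the X chromosome at chrX:42502565-42522097. CD4 T cells held 125 and 131 CPM under isotype and 152, 164 and 172 CPM under anti-PD-L1, so the treated libraries were all above the others. PD-1- Tregs were scattered, at 25.4 and 131 CPM under isotype and 53.9 and 209 CPM under anti-PD-L1. PD-1+ Tregs held 297 and 224 CPM under isotype and 262, 123 and 58.6 CPM under anti-PD-L1, with overlap. The spread within the Treg groups was far wider than in CD4 T cells, where the coefficient of variation was 13.8%. It reached 78.7% for the PD-1- type and 51.5% for the PD-1+ type.

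None of the 7 directed differences of Sh2d1a passed the threshold. The treatment change was 0.35 ± 0.73 in CD4 T cells (adjusted p = 1.0), 0.74 ± 0.79 in PD-1- Tregs (adjusted p = 0.756) and -0.82 ± 0.71 in PD-1+ Tregs (adjusted p = 0.985). Between the Treg types it was 0.95 ± 0.54 (PD-1+ over PD-1-, adjusted p = 0.358), and 1.79 ± 0.57 without the Y-positive libraries (adjusted p = 0.130). The highest PD-1- and the lowest PD-1+ values came from Y-positive libraries.

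Of the other SLAM receptors and partners of SAP, 12 of 13 listed genes were tested. Between the Treg types 3 were called higher in PD-1+ cells and 0 lower. There 4.28% of all genes were called, 511 higher and 64 lower. In PD-1+ Tregs against CD4 T cells 0 of the list were called, beside 0.35% of all genes. Cd84, a SLAM receptor also linked to T and B cell contact, rose from 58.0 ± 42.0 CPM in PD-1- Tregs (SD, n = 4) to 150 ± 29.7 in PD-1+ Tregs (n = 5), a log2 change of 1.64 ± 0.37 (adjusted p = 0.0284). The other 2 were Cd244a, the 2B4 receptor of NK cells, and Sh2d1b1, which encodes the adaptor EAT-2 of innate cells. Both had 0 counts in all PD-1- Treg libraries, with at least 129-fold and at least 92.6-fold more in PD-1+ Tregs (adjusted p = 0.0278 and 0.0361). The list's median log2 difference was 1.27, and that of all genes 0.42. Summed macrophage and monocyte markers (14 of 14 in the table) stood at 4045 to 7882 CPM in PD-1+ Tregs and 366 to 966 CPM in PD-1- Tregs, where C1qa and Fcgr1 were at 0. Of these 14 markers 12 were called higher in PD-1+ than in PD-1- Tregs, and their part in the 3 calls of the SLAM list was not tested. Of the 3, 0 were called without the Y-positive libraries (adjusted p = 0.067 for Cd84, 0.115 for Cd244a and 0.140 for Sh2d1b1). Leaving out 1 library at a time kept Cd84 in 8 of 14 fits, Cd244a in 5 and Sh2d1b1 in 2. The genes most abundant in the list, Ptpn6, Cd48 and Ly9, were not called in any comparison.

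Bcl6, the repressor at the centre of the follicular programme, was steady in CD4 T cells and erratic in Tregs. It lies at chr16:23965050-23988866. CD4 T cells held 104 and 83.0 CPM under isotype and 82.8, 62.1 and 82.0 CPM under anti-PD-L1. PD-1- Tregs held 1.68 and 67.8 CPM under isotype and 33.0 and 59.6 CPM under anti-PD-L1. PD-1+ Tregs held 83.3 and 97.0 CPM under isotype and 81.7, 81.7 and 15.1 CPM under anti-PD-L1. Single libraries set the low values, namely PD-1- isotype replicate 1 and the Y-positive PD-1+ replicate 3, and the remaining PD-1+ libraries lay within the CD4 range.

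Bcl6 was not called with all libraries in any comparison. The log2 differences were -1.07 ± 0.82 for PD-1- Tregs against CD4 T cells (adjusted p = 0.454) and -0.20 ± 0.76 for PD-1+ Tregs against CD4 T cells (adjusted p = 1.0). Leaving out PD-1- isotype replicate 2 left replicate 1 alone to stand for its group, with its spread taken from the other groups. Bcl6 then passed in 3 comparisons, at -3.25 for PD-1- Tregs against CD4 T cells (adjusted p = 0.0201), 3.05 for PD-1+ against PD-1- Tregs (adjusted p = 0.0233) and 4.78 for treatment in PD-1- Tregs (adjusted p = 0.037). In PD-1+ Tregs the treatment difference was -0.60 ± 1.07 (adjusted p = 1.0), and -0.17 ± 1.17 without the Y-positive libraries.

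Ascl2, a basic helix-loop-helix factor that can switch on Cxcr5, was all but absent. It had 3 counts in CD4 isotype replicate 2 (0.217 CPM) and 0 in the other 13 libraries. A count of 0 allows up to 0.198 to 0.292 CPM by library (3 counts), so no difference was detectable at this depth. Its span is chr7:142966822-142969264.

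Among 11 follicular transcription regulators, all tested, 2 rose and 2 fell in PD-1+ against PD-1- Tregs, where 4.28% of all genes were called. Tcf7 and Lef1, partner factors that act early in the follicular state and in memory, fell by 1.42 ± 0.25 and 1.68 ± 0.36 on the log2 scale (adjusted p = 0.0099 and 0.0244), and Tcf7 went from 447 ± 108 CPM (SD, n = 4) to 165 ± 80.4 (n = 5). Tox, a factor of chronically stimulated T cells, rose by 1.13 ± 0.24 (adjusted p = 0.0234). Cebpa, a myeloid factor, had 0 counts in all PD-1- Treg libraries and at least 73.3-fold more in PD-1+ Tregs (adjusted p = 0.0408), a difference in the same direction as the macrophage marker sums. Without the Y-positive libraries Tox and Tcf7 were still called, and Lef1 (adjusted p = 0.0565) and Cebpa (0.149) were not. Leaving out 1 library at a time kept Cebpa in 1 of 14 fits. Against CD4 T cells, Tcf7 and Lef1 fell in PD-1+ Tregs by 2.21 ± 0.25 and 2.57 ± 0.36 (adjusted p = 0.0027 and 0.009). In PD-1- Tregs against CD4 T cells, where 3.6% of all genes were called, 1 of the 11 was called. This was Cebpa, at least 56.7-fold lower. Its call was kept in 2 of 14 fits without 1 library, and lost without the Y-positive libraries.

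Under anti-PD-L1, Tox rose in PD-1- Tregs from 55.6 ± 15.3 to 341 ± 169 CPM (SD, n = 2 each), a log2 change of 2.62 ± 0.37 (adjusted p = 0.004). Its treatment effects differed between the populations (adjusted p = 0.0473 for the equality of the 3 effects), a test that 0.744% of all genes passed. Tox passed it in 2 of 14 fits without 1 library, and not without the Y-positive libraries (adjusted p = 0.133). Id2, which holds E proteins such as Tcf12 away from DNA, rose by 1.48 ± 0.27 in PD-1- Tregs (adjusted p = 0.0135). Averaged over the 3 populations it rose by 1.48 ± 0.15 (adjusted p = 0.000827). Without the Y-positive libraries, which left 1 anti-PD-L1 library of PD-1- Tregs, the rise in PD-1- Tregs was 1.06 on the log2 scale. That rise was not called there, or without PD-1- isotype replicate 1, which left isotype replicate 2 alone in its group. The average was called in both. The 14 listed antagonists of the follicular fate gave 3 rises and 0 falls in that average, namely Id2, Selplg (1.12 ± 0.13) and Il2rb (1.25 ± 0.23), while 1.23% of all genes were called. Il2rb was not called when the Y-positive libraries were left out (adjusted p = 0.0537). Selplg is the adhesion ligand PSGL-1, and Il2rb is a chain of the interleukin 2 receptor. In that average the list's median was 0.57, against 0.01 over all genes.

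The follicular surface molecules and cytokines, 13 listed and tested, gave 1 rise averaged over the populations, where 1.23% of all genes were called. Icos, a costimulatory receptor that follicular helper cells depend on, rose by 1.25 ± 0.18 (adjusted p = 0.008). In PD-1+ Tregs it went from 227 ± 24.5 (SD, n = 2) to 555 ± 61.9 CPM (n = 3), which alone missed the threshold (adjusted p = 0.506). Between the Treg types 2 of the 13 were called, Pdcd1 and Sostdc1, beside 4.28% of all genes (511 higher in PD-1+ Tregs and 64 lower). The same 2 were called lower in PD-1- Tregs than in CD4 T cells, beside 3.6% of all genes. Those 2 calls against CD4 T cells were lost without CD4 anti-PD-L1 replicate 1. Pdcd1, the gene of the sorted receptor PD-1, differed between the Treg types as sorted, by 1.91 ± 0.36. Sostdc1, a secreted inhibitor of bone morphogenetic and Wnt signals found in follicular T cells, had 0 counts in PD-1- Tregs and at least 66.7-fold more in PD-1+ Tregs (adjusted p = 0.0375), a call kept in 1 of 14 fits without 1 library.

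Cxcr5, the receptor for the follicle chemokine CXCL13, showed the widest treatment difference among the members by fold. It lies at chr9:44511787-44526444. CD4 T cells held 31.1 and 36.3 CPM under isotype and 31.6, 14.2 and 35.6 CPM under anti-PD-L1. PD-1- Tregs held 3.44 and 3.26 CPM under isotype and 34.6 and 0.252 CPM under anti-PD-L1. PD-1+ Tregs held 68.9 and 42.4 CPM under isotype and 4.80, 1.02 and 0 CPM under anti-PD-L1. Isotype PD-1+ Tregs exceeded every other library, and the treated ones were among the lowest.

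The mean of Cxcr5 in PD-1+ Tregs went from 55.7 ± 18.7 CPM (SD, n = 2) to 1.94 ± 2.53 CPM (n = 3), 28.7-fold lower under anti-PD-L1. The log2 difference of -4.83 ± 2.00 missed the threshold in edgeR (unadjusted p = 0.0326, adjusted p = 0.596) and reached an adjusted p of 0.0499 in DESeq2. Without the Y-positive libraries it was -4.28 ± 1.29 (adjusted p = 0.626). In PD-1- Tregs the difference was 2.38 ± 2.13 (adjusted p = 0.659), and without PD-1- anti-PD-L1 replicate 1 it turned to -3.68. The equality of the 3 treatment effects gave an adjusted p of 0.496. Over both treatments, PD-1+ Tregs differed from CD4 T cells by -1.54 ± 1.34 (adjusted p = 0.861), a direction that the isotype libraries alone turned to 0.72.

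B cells also express Cxcr5 and Pou2af1, so their markers were read in the same libraries. Of 20 listed B cell markers 17 were in the table. Their sum in PD-1+ Tregs was 720 and 1003 CPM under isotype and 65.8 to 347 CPM under anti-PD-L1, without overlap. Under anti-PD-L1 7 of the 17 were at 0 in all 3 of these libraries, Ms4a1 (CD20) among them, and under isotype none was at 0 in both. For treatment in PD-1+ Tregs edgeR called 0 of the 17, beside 0.0149% of all genes. Lower values without overlap were seen there for 11.5% of all genes. The sum was 496 to 663 CPM in isotype and 197 to 401 CPM in anti-PD-L1 CD4 T cells, where Cxcr5 overlapped between treatments. For 3 defining genes, Cd79a, Cd79b and Ms4a1, picked after their values were seen, the PD-1+ sums were 177 and 340.2 CPM under isotype and 57.1, 22.9 and 38.4 CPM under anti-PD-L1. In PD-1- Tregs the 17 markers summed to 1004 and 80.5 CPM under isotype and 517 and 42.0 CPM under anti-PD-L1, and the 3 genes to 94.6, 78.0, 224 and 42.0 CPM in the same order. Cxcr5 was highest there in anti-PD-L1 replicate 1, which had the highest sum of the 3 genes and the second highest of the 17. In that library Ms4a1 and Jchain were at 0, and Cd79b gave 136 of the 224 CPM. Isotype replicate 1 had the highest sum of the 17, of which Jchain gave 808 CPM, and held 3.44 CPM of Cxcr5. The part of B cell RNA in the Cxcr5 difference was not tested. In sorted bulk samples, fewer cells of a type and less RNA per cell cannot be told apart.

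**Figure D3:**
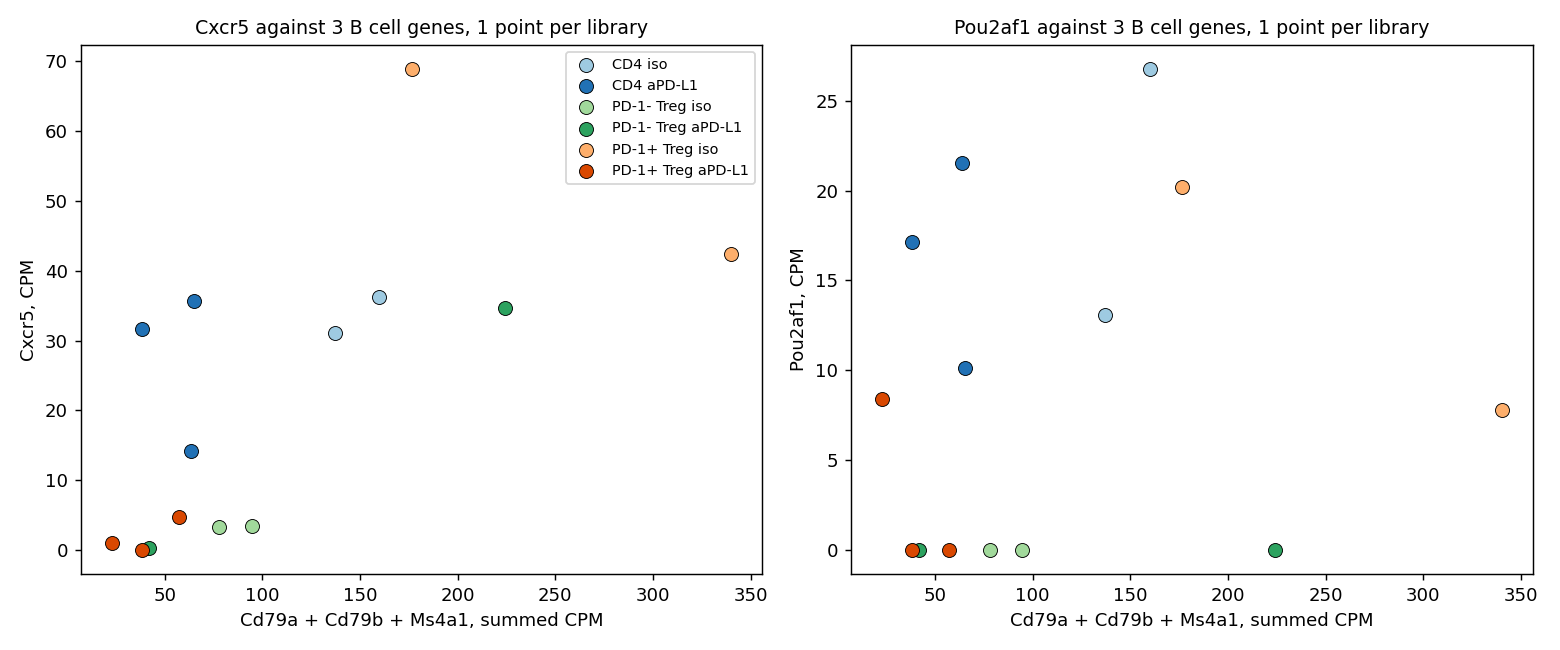
Cxcr5 (left) and Pou2af1 (right) in CPM against the summed CPM of Cd79a, Cd79b and Ms4a1, with 1 point per library coloured by group. The summed genes were picked after their values were seen. The isotype PD-1+ Treg libraries lie at 177 and 340.2 CPM of these summed genes and the anti-PD-L1 ones at 22.9 to 57.1 CPM. All 4 PD-1- Treg libraries lie at 0 CPM of Pou2af1, at 42.0 to 224 CPM of the sum. Of that sum Cd79b alone gave 39.8 to 136 CPM, and Ms4a1 was at 0 there in all but isotype replicate 1.

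Pou2af1 encodes OCA-B (Bob1), a coactivator of octamer-binding factors that is best known in B cells and also acts in memory CD4 T cells. It was found in CD4 T cells and not at all in PD-1- Tregs. CD4 T cells held 13.1 and 26.8 CPM under isotype and 17.1, 21.6 and 10.1 CPM under anti-PD-L1. PD-1- Tregs had 0 counts in all 4 libraries. PD-1+ Tregs held 20.2 and 7.81 CPM under isotype and 0, 8.38 and 0 CPM under anti-PD-L1. All 5 CD4 libraries were above the 4 PD-1- Treg libraries, and PD-1+ Tregs were split between these levels.

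Against a floor of 3 counts per library, Pou2af1 was at least 69.2-fold lower in PD-1- Tregs than in CD4 T cells, and at least 28.4-fold higher in PD-1+ than in PD-1- Tregs. Neither difference passed in edgeR with all libraries in the fit (adjusted p = 0.060 and 0.0785). The first passed in 7 of 26 alternatives, with adjusted p from 2.86e-27 in DESeq2 to 0.252. That DESeq2 value goes with a log2 estimate of -23.99, fitted against 0 counts, a size that the counts do not fix. The 7 include leaving out any 1 of PD-1+ anti-PD-L1 replicates 1, 2 and 3 (adjusted p = 0.0449, 0.0263 and 0.041). A lack of overlap with lower values in PD-1- Tregs was seen for 2 of 7 members, Pou2af1 and Il21, and for 13% of all genes. Without the Y-positive libraries the adjusted p was 0.131 for the first difference and 0.145 for the second. Of the 17 B cell markers, 6 were also at 0 in all 4 PD-1- Treg libraries and Ms4a1 in 3 of them, while Cd79b stood at 39.8 to 136 CPM there. PD-1- Treg libraries were also those with the fewest genes detected, and the part of B cell RNA or of that number in the zeros was not tested.

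The 250 bases before the Pou2af1 gene, at chr9:51213440-51213689 on the plus strand, are shown because this gene separated PD-1- Tregs from CD4 T cells by counts. E-box matches are in capitals.
Pou2af1: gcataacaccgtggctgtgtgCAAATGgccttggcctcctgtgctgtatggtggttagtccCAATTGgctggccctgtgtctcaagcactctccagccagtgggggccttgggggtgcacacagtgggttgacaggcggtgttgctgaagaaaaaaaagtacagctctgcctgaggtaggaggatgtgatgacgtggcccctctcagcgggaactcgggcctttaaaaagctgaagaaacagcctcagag
The matches CAAATG and CAATTG start 229 and 189 bases before the gene, and 66.22% of windows of this length hold at least 1 E-box. The octamer that OCA-B works through is not in these letters, and 1.601% of windows hold it.

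The octamer, E and Id proteins around Pou2af1 numbered 8, all tested. In PD-1- Tregs against CD4 T cells, where 3.6% of all genes were called, 0 rose and 1 fell. This was Id2, which fell by 1.504 ± 0.19 (adjusted p = 0.0017), the direction opposite to its treatment changes. Tcf12 and Tcf4, E proteins of T cells, were not called in any comparison, at 101 ± 97.8 and 91.3 ± 29.9 CPM in PD-1- Tregs (SD, n = 4).

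Il21, the cytokine of follicular helper cells, was present in all 5 CD4 libraries and in few of the others. It lies at chr3:37222759-37232636. CD4 T cells held 7.96 and 2.97 CPM under isotype and 4.94, 1.77 and 18.3 CPM under anti-PD-L1. PD-1- Tregs had 1 count in all, in isotype replicate 2 (0.0905 CPM). PD-1+ Tregs held 0 and 1.42 CPM under isotype and 30.0, 0 and 0 CPM under anti-PD-L1. The highest value of all, in PD-1+ anti-PD-L1 replicate 1, stood beside 2 libraries at 0 in its own group.

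Pooled counts gave a ratio of 337 between CD4 T cells and PD-1- Tregs (95% counting interval 60.1 to 13322), and 294 between PD-1+ and PD-1- Tregs (52.4 to 11634). Neither passed in edgeR (adjusted p = 0.117 and 0.177, and 0.247 and 0.283 without the Y-positive libraries), and both passed in DESeq2 (1.77e-07 and 2.31e-06, adjusted). DESeq2's log2 estimates were -14.9 (PD-1- Tregs over CD4 T cells) and 13.6 (PD-1+ over PD-1- Tregs), both fitted against 1 count. The first difference also passed when only the libraries compared were fitted (adjusted p = 0.0275). The second rests on PD-1+ anti-PD-L1 replicate 1, which held 350 of the 368 counts in PD-1+ Tregs. The treatment difference in PD-1+ Tregs was 3.80 ± 3.36 (adjusted p = 0.995), and without that library it turned to -6.18. Of the 5 listed genes of the IL-21 receptor pathway, Jak1, a kinase of many cytokine receptors, fell in PD-1+ Tregs against CD4 T cells by 1.02 ± 0.17 (adjusted p = 0.0263), from 594 ± 64.8 to 310 ± 78.4 CPM (SD, n = 5 each), and 0 others were called in any comparison. In PD-1+ Tregs against CD4 T cells 0.35% of all genes were called. Jak1 was not called without the Y-positive libraries.

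Across populations, the 7 tested members did not move as one. In PD-1- Tregs against CD4 T cells 1 was higher and 6 lower, with a median log2 difference of -1.07, beside -0.94 over all genes. An unadjusted p below 0.05 was found for 4 of 7 there and for 28.6% of all genes, and DESeq2 called 3 of 7 (23.3% of all genes). In PD-1+ Tregs against CD4 T cells 2 were higher and 5 lower, with a median of -0.57 beside -0.23. By edgeR 0 were called, 1 had an unadjusted p below 0.05 (12.4% of all genes), and DESeq2 called 1, Izumo1r (5.52% of all genes). Between the Treg types 6 were higher in PD-1+ cells, with a median of 0.87 beside 0.42. There edgeR called 0, 2 had an unadjusted p below 0.05 (22.3% of all genes), and DESeq2 called 2, Pou2af1 and Il21 (22.1% of all genes). The members' median lay on the same side of 0 as that of all genes in each comparison. With all libraries Izumo1r lay on the other side in all 3. Between the Treg types it was within its SE of 0 (-0.29 ± 0.29). There it turned to 0.19 without the Y-positive libraries, and ranged up to 0.039 when 1 library was left out.

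**Figure D4:**
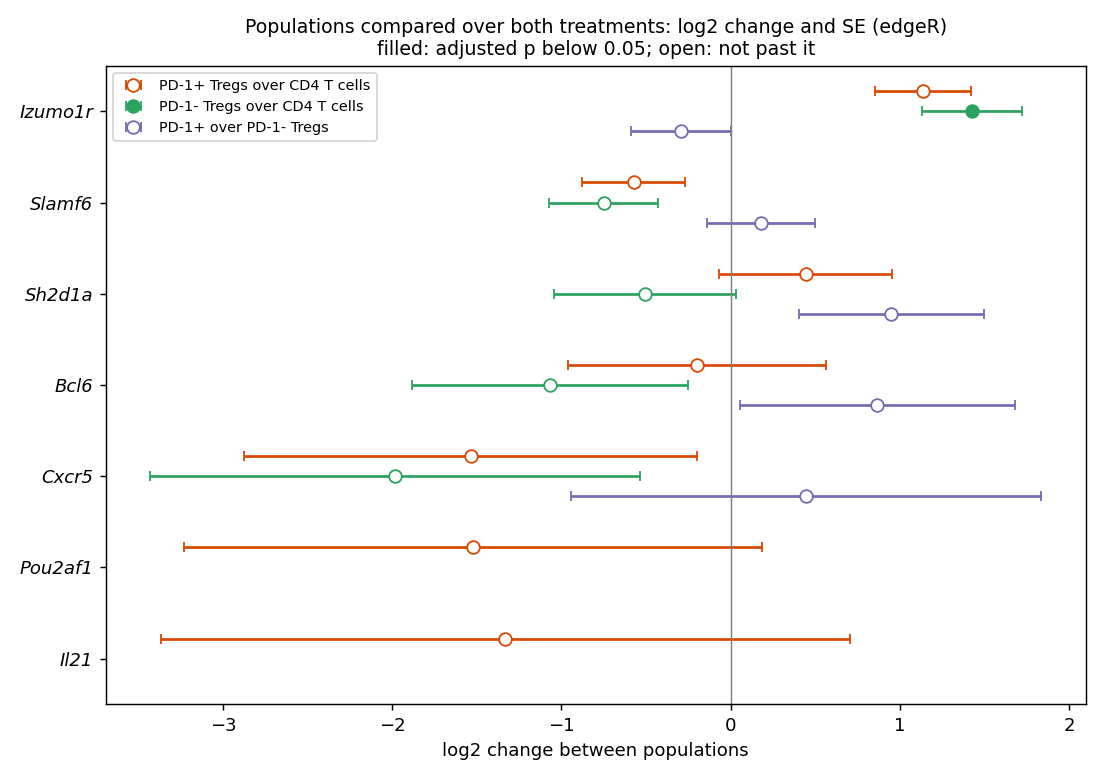
Log2 change (horizontal axis) with SE bars between populations, over both treatments, for the 7 tested members, in 3 colours for the 3 comparisons. The filled point is Izumo1r in PD-1- Tregs over CD4 T cells (1.43), the only one past the threshold, and Il21 and Pou2af1 are left out where PD-1- Tregs had 1 count or none.

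Under anti-PD-L1, the members were lower mainly in PD-1+ Tregs, without passing the edgeR test. Izumo1r went there from 769 ± 48.0 CPM (SD, n = 2) to 303 ± 142 CPM (n = 3), a log2 difference of -1.34 ± 0.39 (unadjusted p = 0.0049, adjusted p = 0.552). Its adjusted p over the alternatives ran from 0.0557 in DESeq2 to 1.0, and it was -1.08 ± 0.32 without the Y-positive libraries. For 4 of 7 members, Izumo1r, Slamf6, Cxcr5 and Bcl6, every treated library was below both isotype ones, which held for 11.5% of all genes. Of the 7, 6 were lower and 1, Il21, was higher, with a median of -1.34 beside 0 over all genes. By edgeR 0 of 7 were called (0.0149% of all genes) and 3 of 7 had an unadjusted p below 0.05 (8.06% of all genes). DESeq2 called 2, Slamf6 and Cxcr5, and 4.6% of all genes.

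In CD4 T cells the treatment differences were small for the abundant members. Izumo1r (0.14 ± 0.40) and Sh2d1a were higher without overlap, beside 12.5% of all genes, and Bcl6 (-0.30 ± 1.07) was lower without overlap, beside 15.5%. Neither edgeR nor DESeq2 called any of the 7, edgeR called 0.00744% of all genes, and 0 members had an unadjusted p below 0.05 (1.15% of all genes). In PD-1- Tregs edgeR called 2.66% of all genes and 0 members, 0 of which had an unadjusted p below 0.05 (20.1% of all genes), and DESeq2 called 20.5% of all genes and 1 member, Il21, which had 1 count in all. Slamf6 was higher there without overlap, beside 12.5% of all genes, and Izumo1r differed by -0.36 ± 0.44. Averaged over the populations, Izumo1r had the lowest p of the members (-0.52 ± 0.24, unadjusted p = 0.0461, adjusted p = 0.321). It was the only one of 7 with an unadjusted p below 0.05 there, as were 14.8% of all genes, and neither tool called a member. The 3 treatment comparisons use separate libraries. By edgeR and by DESeq2 0 of 7 members passed the test that the 3 treatment effects are equal, and 1, Slamf6, had an unadjusted p below 0.05 (11.3% of all genes), so the differences in PD-1+ Tregs are not shown to be particular to them.

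**Figure D5:**
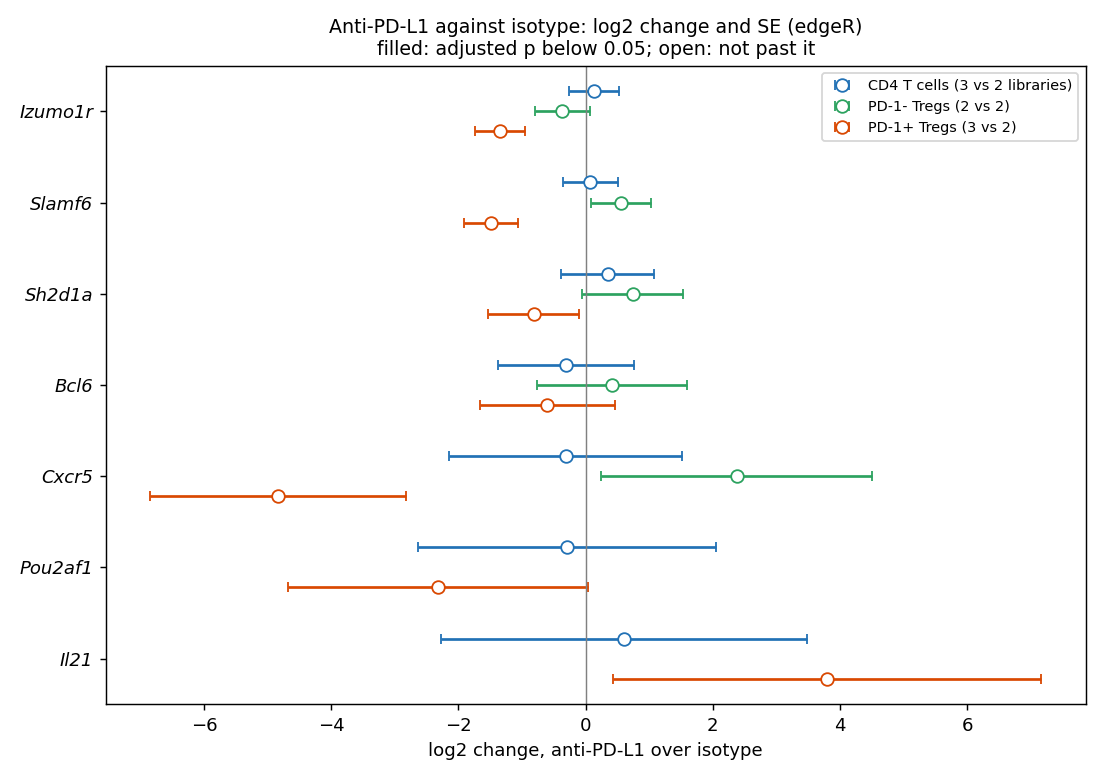
Log2 change with SE bars for anti-PD-L1 over isotype (horizontal axis) for the 7 tested members in each population. All points are open, none being past the threshold. In PD-1+ Tregs Slamf6 lies at -1.48, Izumo1r at -1.34, Cxcr5 at -4.83, Sh2d1a at -0.82 and Il21 at 3.80, and Pou2af1 and Il21 are left out in PD-1- Tregs, where they had 0 counts and 1 count.

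The memory-like CD4 genes numbered 12, all tested. In PD-1+ against PD-1- Tregs 0 rose and 7 fell, beside 4.28% of all genes called, of which 511 were higher and 64 lower, with a list median of -1.55 beside 0.42 over all genes. S1pr1, the receptor for exit from lymphoid tissue, fell by 1.90 ± 0.30 (adjusted p = 0.0059). Klf2, a factor of T cell trafficking that drives S1pr1 and opposes the follicular fate, fell by 2.35 ± 0.39 (adjusted p = 0.0075), and Satb1, a chromatin organiser, fell by 2.36 ± 0.44 (adjusted p = 0.0112). Ltb, which encodes lymphotoxin beta, fell by 0.63 ± 0.14 (adjusted p = 0.0244), and Tcf7 and Lef1 were also among the 7. Without the Y-positive libraries 6 of the 7 were still called and Lef1 was not, and 4 to 8 of the 12 fell when 1 library was left out. The macrophage and monocyte markers (12 of 14 called higher, 6 without the Y-positive libraries) and the number of genes detected also differed between the Treg types, and their part in these falls was not tested. In PD-1+ Tregs against CD4 T cells 0 rose and 3 fell, S1pr1 (by 2.49 ± 0.30), Tcf7 and Lef1. Of all genes, 0.35% were called there. In PD-1- Tregs against CD4 T cells 1 rose, Ltb (0.67 ± 0.14, adjusted p = 0.0215), and 0 fell. Of all genes, 3.6% were called there. That call of Ltb was lost without the Y-positive libraries (log2 0.43, adjusted p = 0.0943). Treatment called 0 of the 12 in any population. Its share of calls over all genes was 0.00744% for CD4 T cells, 2.66% for the PD-1- type and 0.0149% for the PD-1+ type. With shares this low, 0 calls among 12 genes do not show that treatment left them unchanged.

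Genes whose profile was most like a member's over the 14 libraries were looked up among 10106 genes, by Pearson r of log2 CPM. These r values are descriptions, since libraries of 1 population share its cells and its number of detected genes. Izumo1r was nearest to Lsm3 (r = 0.837), Nop58 (0.833) and Gtf3c6 (0.809), and Slamf6 had Calcoco1 (0.869) and Fbxl4 (0.860) among its 3 nearest. Bcl6 was nearest to Erlec1 (0.953), Slc25a17 (0.946) and Nudt21 (0.945). Cxcr5 was nearest to Mcfd2 (0.931), Chmp3 (0.904) and Fbxl4 (0.899), and Sh2d1a to Dgcr6 (0.923), Ube2m (0.916) and Fam92a (0.905). Pou2af1 was nearest to Fndc3b (0.987), Poc5 (0.984) and Elac1 (0.975), of which the first 2 were also at 0 CPM in PD-1- Tregs. No member was among another member's 3 nearest genes.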

How the data were processed

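Gene expression was measured by Smart-seq2, without molecular identifiers, in 14 libraries of 6 groups. The deposited table gives, per its header and the labels, a raw count and an RPKM value made by the authors for each gene and library. Tools named in the submitters' processing notes are HISAT2 2.0.4, HOMER 3.12, SAMtools and DESeq2, and the build is mm10. Neither annotation nor counting settings nor strand use is stated, and overlapping genes and close copies are uncertain.

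Counts were tested with edgeR 4.0.16 (filterByExpr, minimum count 10, leaving 13434 genes; TMM; quasi-likelihood F-test with robust estimation; 1 fit of 6 group means). P-values were adjusted by Benjamini-Hochberg over all genes, with a threshold of 0.05. Population comparisons weight both treatments equally on the log2 scale. CPM values use TMM-scaled totals. Where an arm had 0 counts, folds are bounds against 3 counts per library, and intervals cover counting error only.

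Named genes are the members, the sort genes, listed genes past the threshold (the 6 largest if more) with the 3 most abundant of each list, and the 3 genes most correlated with each member of at least 5 CPM. Genes past 6 in a list were named only to complete its count. A few genes the rule picks are not reported here. The members and lists were chosen with earlier results of these data known. Positions and upstream sequences are from RefSeq tables of GRCm38.p6; all 8 members matched for position and 6 had an upstream sequence. Alternatives were DESeq2 1.42.0, RLE scaling, no filter, limma 3.58.1 on log2(RPKM + 1) and log2(RPKM + 0.1) of the deposited RPKM, replicate blocks, subsets of libraries and leaving out each library. The scripts were tested on simulated counts, where few changed genes were recovered. For treatment in PD-1+ Tregs, 2% of 100 genes changed by log2 2 and 11% of 100 changed by log2 4 were called. For PD-1+ Tregs against CD4 T cells these shares were 18% and 34%. A gene that is not called may thus still differ.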

Additional observations from a re-analysis of the deposited data

Results flagged for a closer look

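Transcripts of Y-linked genes (Ddx3y, Eif2s3y, Kdm5d and Uty), which the comparisons do not use, were present in 3 libraries although the labels give the animals as female. Their sums were 207.4 CPM in CD4 anti-PD-L1 replicate 3, 249.4 CPM in PD-1- Treg anti-PD-L1 replicate 2 and 285.1 CPM in PD-1+ Treg anti-PD-L1 replicate 3. The sum was at most 0.0849 CPM in each of the other 11 libraries, the isotype ones included. All 3 carry the number 3 in the bracketed tag of their title.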

How the results depend on the processing

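Of 1321 values of members under alternatives, 1246 kept their direction and side of the threshold, 12 lost and 18 gained a call, and 45 changed direction, 23 of these by leaving out 1 library; the cause was not tested. Groups of 2 or 3 libraries and a common biological coefficient of variation of 1.22 limit every test. Below, treatment within each population (CD4 T cells, then PD-1-, then PD-1+ Tregs), treatment averaged, PD-1+ Tregs over CD4 T cells, PD-1- Tregs over CD4 T cells, PD-1+ over PD-1- Tregs, and the difference of treatment effects called 1, 358, 2, 165, 47, 484, 575 and 100 genes in edgeR. In that order DESeq2 called 54, 2755, 618, 1898, 741, 3134, 2963 and 1035. On log2(RPKM + 1), limma called 17, 538, 65 and 108 for treatment, 250 and 1020 for the Tregs over CD4 T cells, and 38 for the difference. On log2(RPKM + 0.1) it called 27 and 57 for treatment of CD4 T cells and of PD-1+ Tregs, 388 and 1881 for the Tregs over CD4 T cells and 151 for the difference. With no filter 3 were called for treatment in CD4 T cells and 71 for PD-1+ Tregs over CD4 T cells. With only the compared libraries the counts were 6, 7 and 0 for treatment by population, and 152, 1446 and 47 between populations. Isotype libraries alone gave 5, 129 and 117 between populations, and anti-PD-L1 libraries alone 5, 113 and 238. Without the Y-positive libraries treatment called 2, 712, 0 and 386. RLE scaling moved the median of PD-1- Tregs over CD4 T cells from -0.94 to -0.846 and no other median by as much, and changed no member's call or direction.

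The main fit uses no pairing, and whether a shared number marks a shared animal or pool is not stated. Deviations of the 13 same-tag, same-treatment pairs correlated at 0.00203 to 0.0354 (mean 0.0173). Those of the 20 pairs of different tag and same treatment correlated at -0.0333 to 0.0172 (mean -0.0113). Of 14 libraries, 12 correlated best with their own tag number, and the 3 Y-positive libraries all carry tag number 3. Deviations were taken from group means, so in groups of 2 they mirror each other, and these matches are not independent. Correlations this small cannot settle whether libraries share a source. With a replicate block by title number the counts were 146 and 1 for treatment in PD-1- and PD-1+ Tregs, 29 averaged, 100 and 173 for PD-1- Tregs over CD4 T cells and PD-1+ over PD-1- Tregs, and 2 for the difference. Blocking by tag number gave 128, 1, 18, 169, 241 and 7 in the same order. The block by treatment and tag number, chosen after seeing the data, gave 52, 84 and 0 for the last 3. Izumo1r in PD-1- Tregs had an adjusted p of 0.0803, 0.0454 and 0.0897 under these 3 blocks. Under the title block, log2 changes turned to 0.10 for Bcl6 and 0.93 for Pou2af1 (treatment in CD4 T cells) and 0.10 for Bcl6 (averaged). Under the tag block they turned to 1.80 for Cxcr5 and 0.70 for Pou2af1 (CD4 T cells) and 0.014 for Bcl6 (averaged).

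Other turned values were, for treatment averaged, Il21 at -3.67 in DESeq2 and Bcl6 at 0.042 and 0.23 on the RPKM scales. Without the Y-positive libraries Il21 turned to -0.71 (treatment, CD4 T cells), Bcl6 to -0.10 and Sh2d1a to -0.56 (PD-1- Tregs), Sh2d1a to -0.24 (averaged), Bcl6 to 0.047 (PD-1+ Tregs over CD4 T cells) and Izumo1r to 0.19 (PD-1+ over PD-1- Tregs). Isotype libraries alone turned Slamf6 to 0.21 and Cxcr5 to 0.72 (PD-1+ Tregs over CD4 T cells) and Izumo1r to 0.20 (PD-1+ over PD-1- Tregs). Anti-PD-L1 libraries alone turned Il21 to 0.26 and Sh2d1a to -0.14 (PD-1+ Tregs over CD4 T cells), and Slamf6 to -0.85 and Cxcr5 to -3.16 (PD-1+ over PD-1- Tregs).

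Leaving out each library gave 0 to 2, 202 to 1061, 1 to 4, 31 to 820, 10 to 75, 148 to 1288, 292 to 1346 and 11 to 549 genes in the order above. The members that turned ranged, for treatment in CD4 T cells, from -0.11 to 0.29 (Slamf6), -0.70 to 1.44 (Il21) and -0.75 to 0.31 (Pou2af1). In PD-1- Tregs they ranged from -1.04 to 0.11 (Izumo1r), -0.56 to 4.78 (Bcl6), -3.68 to 3.34 (Cxcr5), -3.35 to 0.0 (Il21) and -0.56 to 2.37 (Sh2d1a). Il21 ranged from -6.18 to 9.97 in PD-1+ Tregs. Averaged, the ranges were -0.51 to 1.29 (Bcl6), -2.69 to 2.70 (Il21) and -0.36 to 0.63 (Sh2d1a). Bcl6 ranged from -0.35 to 0.031 for PD-1+ Tregs over CD4 T cells. For PD-1+ over PD-1- Tregs they were -0.52 to 0.039 (Izumo1r), -0.041 to 0.50 (Slamf6) and -0.50 to 3.47 (Cxcr5).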
